A study of Homo sapiens with 12 samples.

Results

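The 30 genes described here are zinc finger genes that lie next to one another on chromosome 19q13.12. They were chosen by a list of names, and that list was drawn up because 2 of its genes, ZNF566 and ZNF850, differed between the genotypes of HCT116 cells. Of the 30 genes, 29 were measured, among 18377 genes with a single-symbol transcript cluster on the array. The expression of ZNF260 was not analysed here. Each of the 29 had exactly 1 such cluster.

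The study read the total RNA of 12 samples on Affymetrix HuGene arrays, which read a transcript with probes spread along its exons. HCT116 and DLD1 are human colorectal carcinoma lines, each of which carries an activating point mutation in 1 allele of a PI3K catalytic subunit. The mutation differs between the lines, and the labels give it as H1047R in HCT116 and E545K in DLD1. In the mutant-only cells of a line the wild-type allele had been knocked out, and in the wild-type-only cells the mutated allele had been knocked out. The 4 groups were HCT116 mutant-only, HCT116 wild-type-only, DLD1 mutant-only and DLD1 wild-type-only, with 3 arrays each. All cells, of both genotypes, had been kept in McCoy's medium with 0.5% serum for 19 h. Every group is a gene-targeted derivative, so no group is the parental line with both alleles, and a difference between the genotypes compares 2 derived lines. The labels call the arrays biological replicates without saying how they were separated, so the p-values measure the spread between these samples, which may be technical.

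KRAB zinc finger proteins are the largest family of transcription factors in the human genome. Their zinc fingers bind DNA, in many cases in transposable elements, and their KRAB domain recruits the corepressor TRIM28 (KAP1), which brings the histone methyltransferase SETDB1 and heterochromatin proteins to the site. The genes arose by tandem duplication and lie in clusters, of which chromosome 19 holds most, and the cluster at 19q13.12 is one of them. The proteins of ZNF146 and ZNF260 consist of zinc fingers and have no KRAB domain.

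Along the chromosome the 29 measured genes run in the order ZNF565, ZNF146, ZFP14, ZFP82, ZNF566, ZNF529, ZNF382, ZNF461, ZNF567, ZNF850, ZNF790, ZNF345, ZNF829, ZNF568, ZNF420, ZNF585A, ZNF585B, ZNF383, HKR1, ZNF527, ZNF569, ZNF570, ZNF793, ZNF540, ZNF571, ZFP30, ZNF781, ZNF607 and ZNF573. HKR1 is now named ZNF875, and ZNF781 is annotated as a transcribed pseudogene. A single other measured gene, LINC00665, lies inside this stretch.

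The upstream sequences of 5 genes are shown because these genes carry the main differences described below: ZNF566 and ZNF850 stood out between the HCT116 genotypes, ZNF420 had the greatest difference between the lines, and ZNF585B, of the duplicated pair ZNF585A and ZNF585B, rose in DLD1 mutant-only cells. Each is the 250 bases before the annotated start, read 5′ to 3′ on the gene's own strand, from RefSeq on GRCh38.p14. Capitals mark the letters TTCCCAG. In order, they are chr19:36489562-36489811 on the minus strand, chr19:36772808-36773057 on the minus strand, chr19:37078183-37078432 on the plus strand, chr19:37172696-37172945 on the minus strand and chr19:37210537-37210786 on the minus strand.
ZNF566: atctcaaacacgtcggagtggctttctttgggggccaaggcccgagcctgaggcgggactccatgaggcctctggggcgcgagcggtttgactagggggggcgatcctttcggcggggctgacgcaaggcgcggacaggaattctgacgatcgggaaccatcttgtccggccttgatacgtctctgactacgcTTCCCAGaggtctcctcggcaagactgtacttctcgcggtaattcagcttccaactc
ZNF850: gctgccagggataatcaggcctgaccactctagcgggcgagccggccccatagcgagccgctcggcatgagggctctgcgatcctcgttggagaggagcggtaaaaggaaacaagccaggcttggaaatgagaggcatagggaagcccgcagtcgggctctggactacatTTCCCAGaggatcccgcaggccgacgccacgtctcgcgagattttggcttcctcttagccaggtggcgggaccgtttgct
ZNF420: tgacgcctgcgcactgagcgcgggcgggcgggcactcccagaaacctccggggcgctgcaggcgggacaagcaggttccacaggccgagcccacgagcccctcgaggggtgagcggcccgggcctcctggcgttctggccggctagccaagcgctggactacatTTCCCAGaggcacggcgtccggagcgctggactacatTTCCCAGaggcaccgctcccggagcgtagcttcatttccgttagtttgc
ZNF585A: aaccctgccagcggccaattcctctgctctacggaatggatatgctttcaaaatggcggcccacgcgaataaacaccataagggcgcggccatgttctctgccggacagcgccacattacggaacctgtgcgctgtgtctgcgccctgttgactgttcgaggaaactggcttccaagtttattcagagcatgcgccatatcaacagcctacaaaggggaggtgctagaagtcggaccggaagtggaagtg
ZNF585B: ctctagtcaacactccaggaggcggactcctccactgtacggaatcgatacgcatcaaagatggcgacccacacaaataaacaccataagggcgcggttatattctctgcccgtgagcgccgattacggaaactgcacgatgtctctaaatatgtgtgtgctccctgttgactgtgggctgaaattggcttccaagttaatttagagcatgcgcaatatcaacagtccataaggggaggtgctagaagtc

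The windows of ZNF850 and ZNF420 share a run of 21 bases, ctggactacatttcccagagg, and ZNF420 holds that run at 2 places, which begin their TTCCCAG at 86 and 49 bases before the start. In ZNF850 the same letters begin 80 bases before the start. The run is not particular to these genes. The window of ZNF568 holds the same 21 bases on the opposite strand, with its copy of the letters 243 bases before the start. ZNF568 was nearly flat over the study, with a difference of 0.02 between the lines. ZNF566 has a related run, tctgactacgcTTCCCAGagg, with its capitals beginning 57 bases before the start. ZNF585A and ZNF585B have no TTCCCAG and share a different run, aataaacaccataagggcgcgg, of 22 bases. With each window read on its gene's own strand, the median longest shared run over all pairs of member windows was 8 bases. Both shared runs are long on that reading. Runs shared between opposite strands, as in neighbours whose windows overlap, did not enter that median and can be longer.

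RefSeq windows were matched for 27 of the 30 genes. TTCCCAG, searched on both strands, was present in 12 of the 27 windows (44.4%), against 1342 of 14210 measured genes (9.44%) and 46 of 187 other zinc finger genes of chromosome 19 (24.6%). It forms the core of the longer motif bound by ZNF143, a transcriptional activator found at many promoters, and it was picked after the windows had been read, so its share is a description. The windows of ZNF461 and ZNF567 overlap and hold the same copy, tcggactgcatTTCCCAGagg, and those of ZNF345 and ZNF790 likewise share a copy, ctggactacacTTCCCAGaag. The ETS letters CCGGAAG were in 18.5% of member windows, against 12.1% of measured genes and 31% of the other zinc finger genes of chromosome 19. CCAAT was in 14.8% of member windows, against 34.4% of measured genes and 54.5% of the other zinc finger genes. CACGTG was in 3.7% of member windows, against 7.86% of measured genes, and GTAAACA, the letters of FOXO factors, was in 0 of 27, against 2.08%. Each motif was searched on both strands, and none of the 5 contains another. The median GC content of the member windows was 61.2%, against 62.8% over measured genes, and the median number of CpG was 18 in both.

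The arrays carried epithelial transcripts. Of 10 colorectal epithelial markers, 6 lay above the array median on all 6 HCT116 arrays and 7 on all 6 DLD1 arrays, EPCAM, KRT8, KRT18, KRT19, CDH1 and CDX2 among them in both lines. CDH17 did so in DLD1 only, while CDX1, VIL1 and LGALS4 did so in neither line. No leukocyte (4) or endothelial (4) marker lay above the median, and of 5 fibroblast markers COL1A1 did. These medians, taken over the genes of each array, ran between 8.07 and 8.14 on the log2 scale.

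Values of the zinc finger genes are given as deposited, as log2 expression, and a level of 1 gene cannot be set against that of another because each has its own probes. A filter on dim genes at 7.57, the 40th percentile of all genes' mean signals, was run as an alternative and kept 6 of the 29 genes, ZNF146, ZNF566, ZNF850, ZNF585B, ZNF383 and ZNF607. The 12 genes with a mean under 6 were nearly flat over the study: their differences ran from -0.10 to 0.11 between HCT116 genotypes, from -0.10 to 0.08 between DLD1 genotypes and from -0.08 to 0.05 between the lines. No detection p was used here, so whether the probes of these 12 read above the background was not tested. They are ZFP82, ZNF529, ZNF382, ZNF790, ZNF345, ZNF829, ZNF568, ZNF569, ZNF570, ZNF540, ZNF781 and ZNF573.

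**Figure D1:**
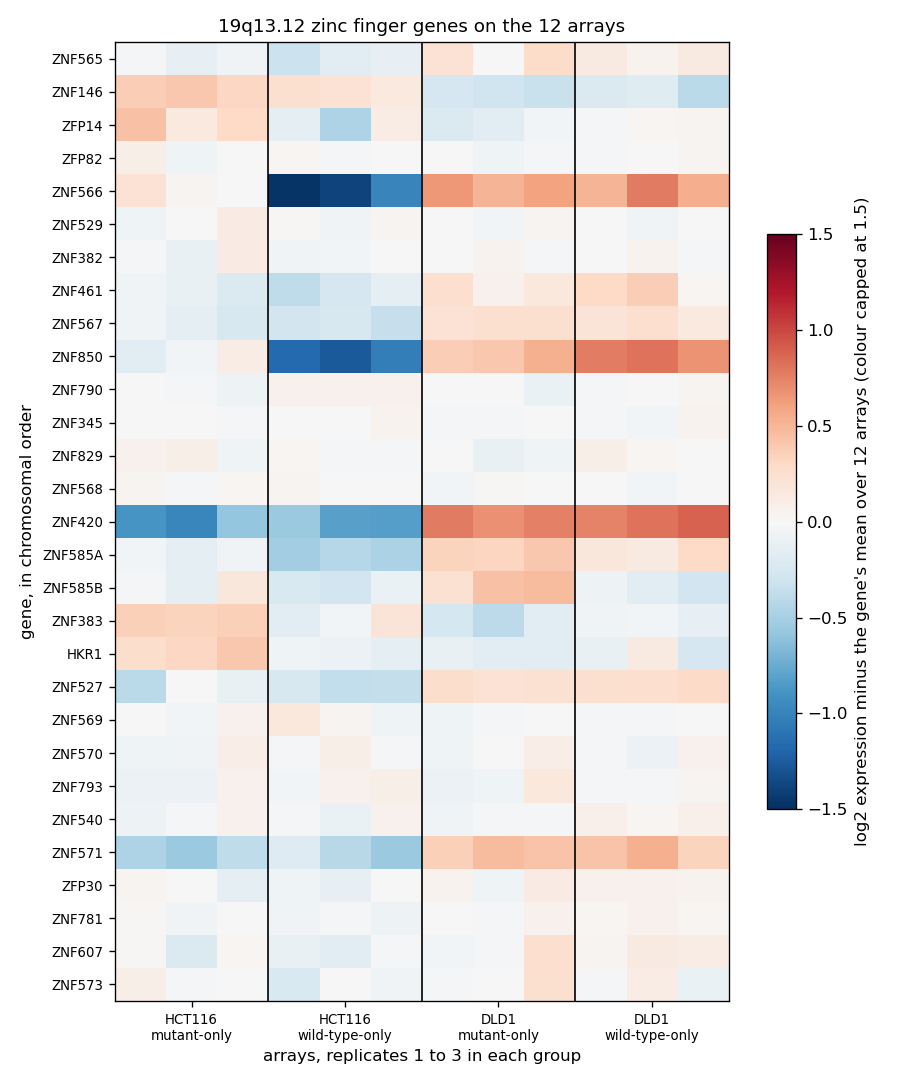
Log2 expression of the 29 genes, in chromosomal order from top to bottom, on the 12 arrays (replicates 1 to 3 of each group), as the difference from each gene's own mean over the arrays, with the colour capped at 1.5. ZNF566 and ZNF850 are lowest on the 3 HCT116 wild-type-only arrays, ZNF420 and ZNF571 are lower on all 6 HCT116 arrays than on the DLD1 arrays, and many rows hardly change.

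The difference between HCT116 mutant-only and wild-type-only cells was in view when the list was made, so its values are given as a description, without a test. ZNF566, a KRAB zinc finger gene, read 7.99, 7.82 and 7.77 on the 3 HCT116 mutant-only arrays, against 6.31, 6.39 and 6.78 on the 3 wild-type-only arrays. All mutant-only arrays lay above all wild-type-only arrays, and the difference was 1.37 on the log2 scale (SE 0.110), or 2.58-fold. In DLD1 the same gene read 8.42, 8.29 and 8.38 on mutant-only arrays, against 8.28, 8.55 and 8.32 on wild-type-only arrays. There the genotypes overlapped, and all 6 DLD1 arrays were above every HCT116 array.

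ZNF850, which encodes another KRAB zinc finger protein, read 7.84, 7.96 and 8.11 on HCT116 mutant-only arrays, against 6.83, 6.74 and 6.96 on wild-type-only arrays. The genotypes did not overlap, and they differed by 1.13 (SE 0.0776), or 2.19-fold. The authors' deposited table for this contrast, with 35 clusters, lists ZNF850 at a fold of 2.19, and no other gene of the cluster is in it. ZNF566 is thus absent from it despite its 2.58-fold difference here, and the reason was not tested. In DLD1 ZNF850 read 8.37, 8.40 and 8.53 on mutant-only arrays, against 8.77, 8.82 and 8.68 on wild-type-only arrays. Here too the genotypes did not overlap, but mutant-only cells were on the lower side.

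Of the 29 genes, 9 had all 3 HCT116 mutant-only arrays above all 3 wild-type-only arrays, where 12.5% of all genes did, and 1 had them all below (ZNF790), where 9.51% of all genes did. The other 19 overlapped. The median difference of the 29 genes was 0.0395, against -0.00104 over all genes, with 20 positive and 9 negative values, and 16 genes were within 0.1 of 0. The median was 0.0745 without HCT116 mutant-only replicate 3, 0.0643 without mutant-only replicate 2 and 0.0239 without wild-type-only replicate 2. Other zinc finger genes had a like shift: the median was 0.0472 over the 219 on chromosome 19, with 146 positive and 73 negative values and 51 genes with all mutant-only arrays above all wild-type-only arrays. Over the 284 on other chromosomes it was 0.0546, with 188 positive and 96 negative values and 69 such genes. After ZNF566 and ZNF850 the greatest differences were those of ZFP14 (0.45, SE 0.115), HKR1 (0.42, SE 0.0802), ZNF585A (0.40, SE 0.0560), ZNF383 (0.35, SE 0.0803), ZNF585B (0.21, SE 0.0897) and ZNF146 (0.16, SE 0.0622).

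ZFP14 read 6.96, 6.67 and 6.82 on HCT116 mutant-only arrays, against 6.39, 6.06 and 6.63 on wild-type-only arrays. HKR1, first described as a relative of the GLI and Krüppel genes, read 7.27, 7.31 and 7.41 on mutant-only arrays, against 6.94, 6.92 and 6.87 on wild-type-only arrays. ZNF383, whose product has been reported to repress transcription downstream of MAP kinase signalling, read 9.29, 9.26 and 9.29 on mutant-only arrays, against 8.77, 8.89 and 9.12 on wild-type-only arrays. In each of these genes every mutant-only array was above every wild-type-only array, with a wider spread among the wild-type-only arrays of ZFP14 and ZNF383 than of HKR1. ZNF146 read 11.47, 11.51 and 11.41 on mutant-only arrays, against 11.34, 11.32 and 11.25 on wild-type-only arrays, a small step without overlap.

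**Figure D2:**
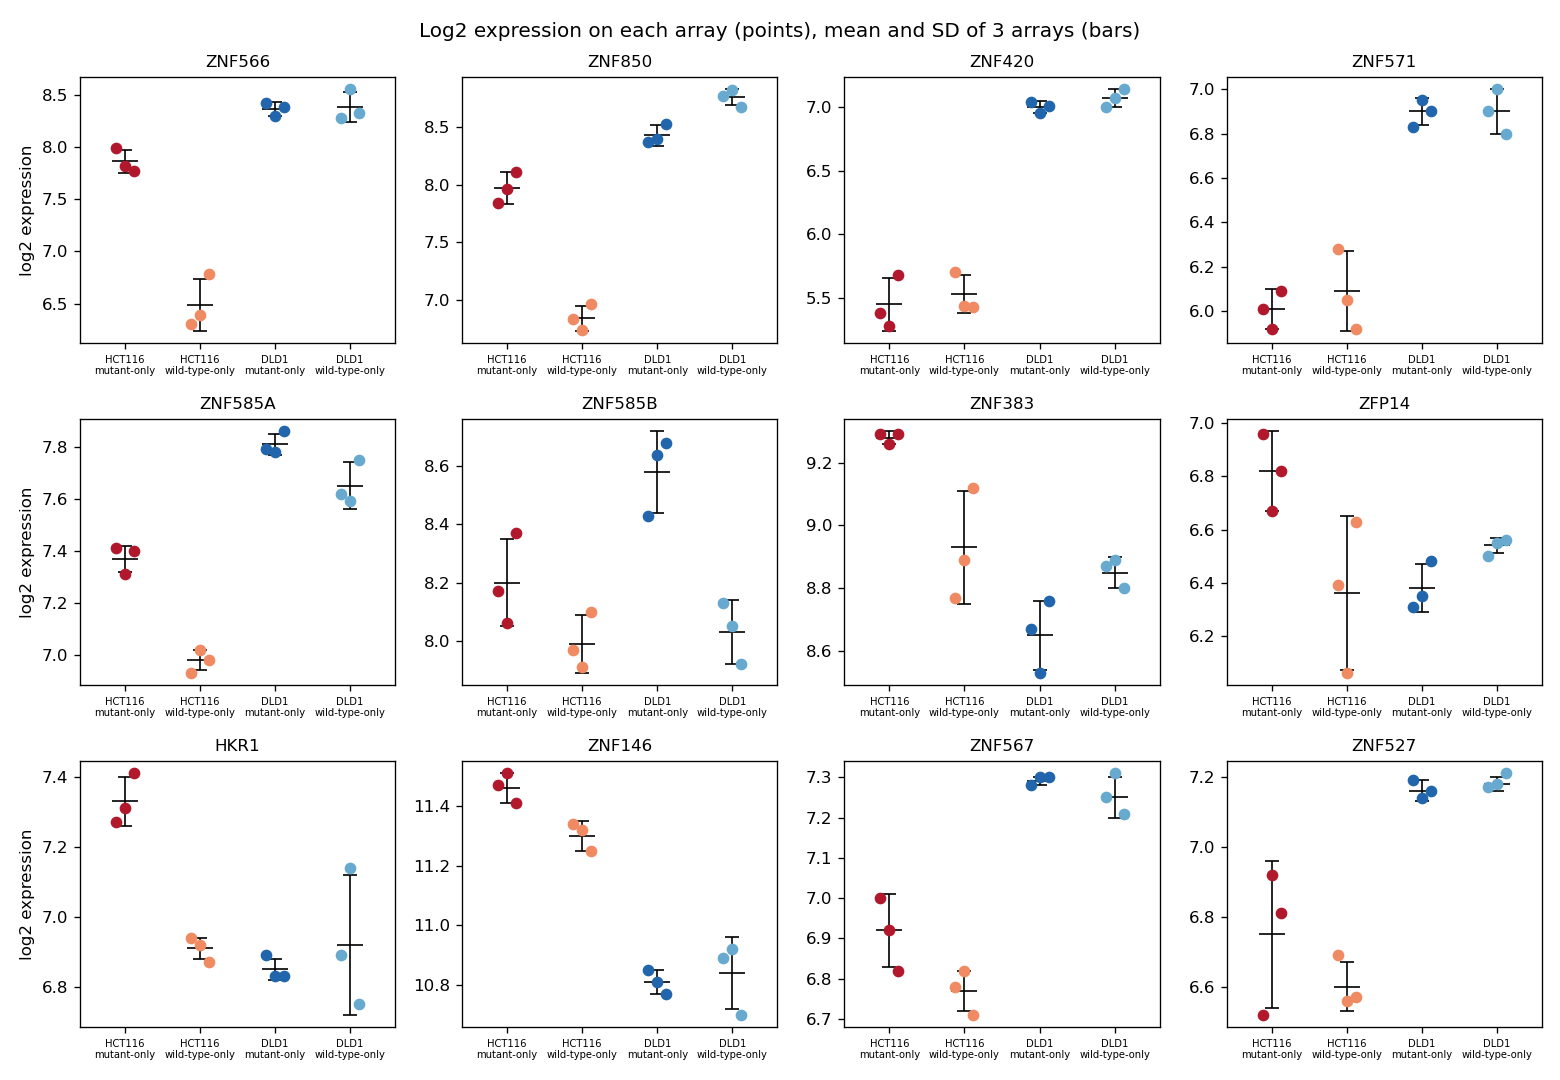
Log2 expression of single genes on each array (points), with the mean and SD of the 3 arrays of a group (bars), in the order HCT116 mutant-only, HCT116 wild-type-only, DLD1 mutant-only and DLD1 wild-type-only. ZNF566 and ZNF850 sit lowest in HCT116 wild-type-only cells, ZNF585B sits highest in DLD1 mutant-only cells, and ZNF420 separates the lines in both genotypes.

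The 4 measured genes between ZNF566 and ZNF850 had far smaller HCT116 differences. ZNF260, which lies between ZNF566 and ZNF529, has no expression value here. ZNF529 differed by 0.02 (SE 0.0562), ZNF382 by 0.02 (SE 0.0597), ZNF461 by 0.13 (SE 0.0870) and ZNF567 by 0.14 (SE 0.0554). On the other sides, ZFP82 beside ZNF566 differed by 0.00 (SE 0.0503), and ZNF790 beside ZNF850 by -0.10 (SE 0.0471). ZFP82, ZNF529, ZNF382 and ZNF790 are among the 12 genes with means under 6, and whether their probes could have shown a change was not tested, so their small differences say little about these neighbours. Beyond the ends of the cluster, the 20 nearest measured genes had HCT116 differences between -0.13 and 0.31, the highest being that of SYNE4, a nuclear envelope protein gene.

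The difference between the DLD1 genotypes was taken from the 6 DLD1 arrays, which did not shape the list, and here each gene was tested. The HCT116 arrays entered the estimate of the spread, since all 12 arrays were fitted together. In DLD1 mutant-only against wild-type-only cells 2 of the 29 genes passed the test (6.9%), 1 higher and 1 lower, where 8.77% of all 18377 genes did, 5.66% higher and 3.11% lower (limma, Benjamini-Hochberg adjusted p under 0.05 over all genes). The share in the cluster was close to the background. ZNF585B rose 1.46-fold and ZNF850 fell 1.25-fold in mutant-only cells.

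ZNF585B, a KRAB zinc finger gene duplicated beside ZNF585A, read 8.43, 8.64 and 8.68 on DLD1 mutant-only arrays, against 8.13, 8.05 and 7.92 on wild-type-only arrays. The groups did not overlap, and the difference of 0.55 (SE 0.0897) had an adjusted p of 0.00178 in limma. ZNF585B kept its call under all 22 alternatives run, the fit of the DLD1 arrays alone among them. In HCT116 it read 8.17, 8.06 and 8.37 on mutant-only arrays, against 7.97, 7.91 and 8.10 on wild-type-only arrays, which overlapped.

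ZNF585A read 7.79, 7.78 and 7.86 on DLD1 mutant-only arrays, against 7.62, 7.59 and 7.75 on wild-type-only arrays. The arrays did not overlap, but the difference of 0.16 (SE 0.0560) did not pass the test, with an adjusted p of 0.10 in limma. In HCT116 it read 7.41, 7.31 and 7.40 on mutant-only arrays, against 6.93, 7.02 and 6.98 on wild-type-only arrays, again without overlap. The genes of the pair are close paralogues, and how far probes of one also read the other was not tested, so their values may not be independent. ZNF585A and ZNF585B were the 2 genes of the cluster with all 3 DLD1 mutant-only arrays above all 3 wild-type-only arrays, where 15.6% of all genes showed that.

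ZNF850 fell in DLD1 mutant-only cells, by 0.32 (SE 0.0776, adjusted p = 0.0195 in limma), the opposite direction from its HCT116 difference. This call was lost in 6 of 22 alternatives, all of which left out a DLD1 array. They were 4 of the 12 fits without 1 array and 2 of the 3 without 1 replicate number. The 12 include fits without an HCT116 array, which keep every DLD1 array compared, so the count of 22 overstates how firm the call is. Its adjusted p was 0.0836 without DLD1 mutant-only replicate 1, 0.0683 without mutant-only replicate 2, 0.0700 without wild-type-only replicate 1 and 0.0654 without wild-type-only replicate 2. It was 0.249 without replicate 1 of all groups and 0.179 without replicate 2 of all groups.

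The DLD1 arrays of mutant-only cells were all below those of wild-type-only cells for 4 genes, ZFP14, ZNF850, ZNF383 and ZNF540, where 12.7% of all genes were. ZFP14 read 6.31, 6.35 and 6.48 on DLD1 mutant-only arrays, against 6.50, 6.55 and 6.56 on wild-type-only arrays, and its difference of -0.16 (SE 0.115) had an adjusted p of 0.467. ZNF383 read 8.67, 8.53 and 8.76 on mutant-only arrays, against 8.87, 8.89 and 8.80 on wild-type-only arrays, and its difference of -0.20 (SE 0.0803) had an adjusted p of 0.160. Neither passed the test. ZNF540 read 5.01, 5.03 and 5.04 on mutant-only arrays, against 5.14, 5.09 and 5.14 on wild-type-only arrays, a difference of -0.10 (SE 0.0560, adjusted p = 0.344).

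HKR1 read 6.89, 6.83 and 6.83 on DLD1 mutant-only arrays, against 6.89, 7.14 and 6.75 on wild-type-only arrays, and ZNF146 read 10.85, 10.81 and 10.77 on mutant-only arrays, against 10.89, 10.92 and 10.70. Both overlapped, and neither passed the test (adjusted p = 0.672 and 0.867 in limma). ZNF829 read 5.43, 5.33 and 5.37 on DLD1 mutant-only arrays, against 5.52, 5.47 and 5.43 on wild-type-only arrays, which touch at 5.43. ZNF573, the last gene of the stretch, read 5.91, 5.93 and 6.17 on mutant-only arrays, against 5.90, 6.04 and 5.83 on wild-type-only arrays, with overlap. The median DLD1 difference of the 29 genes was -0.0197, against -0.00715 over all genes, and 24 of the 29 were within 0.1 of 0.

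The 219 other zinc finger genes of chromosome 19 had 10 DLD1 calls (4.57%) and a median difference of -0.0074. The 284 zinc finger genes of other chromosomes had 22 (7.75%), with a median of 0.00341. None of the 20 genes flanking the cluster passed the test in DLD1.

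**Figure D3:**
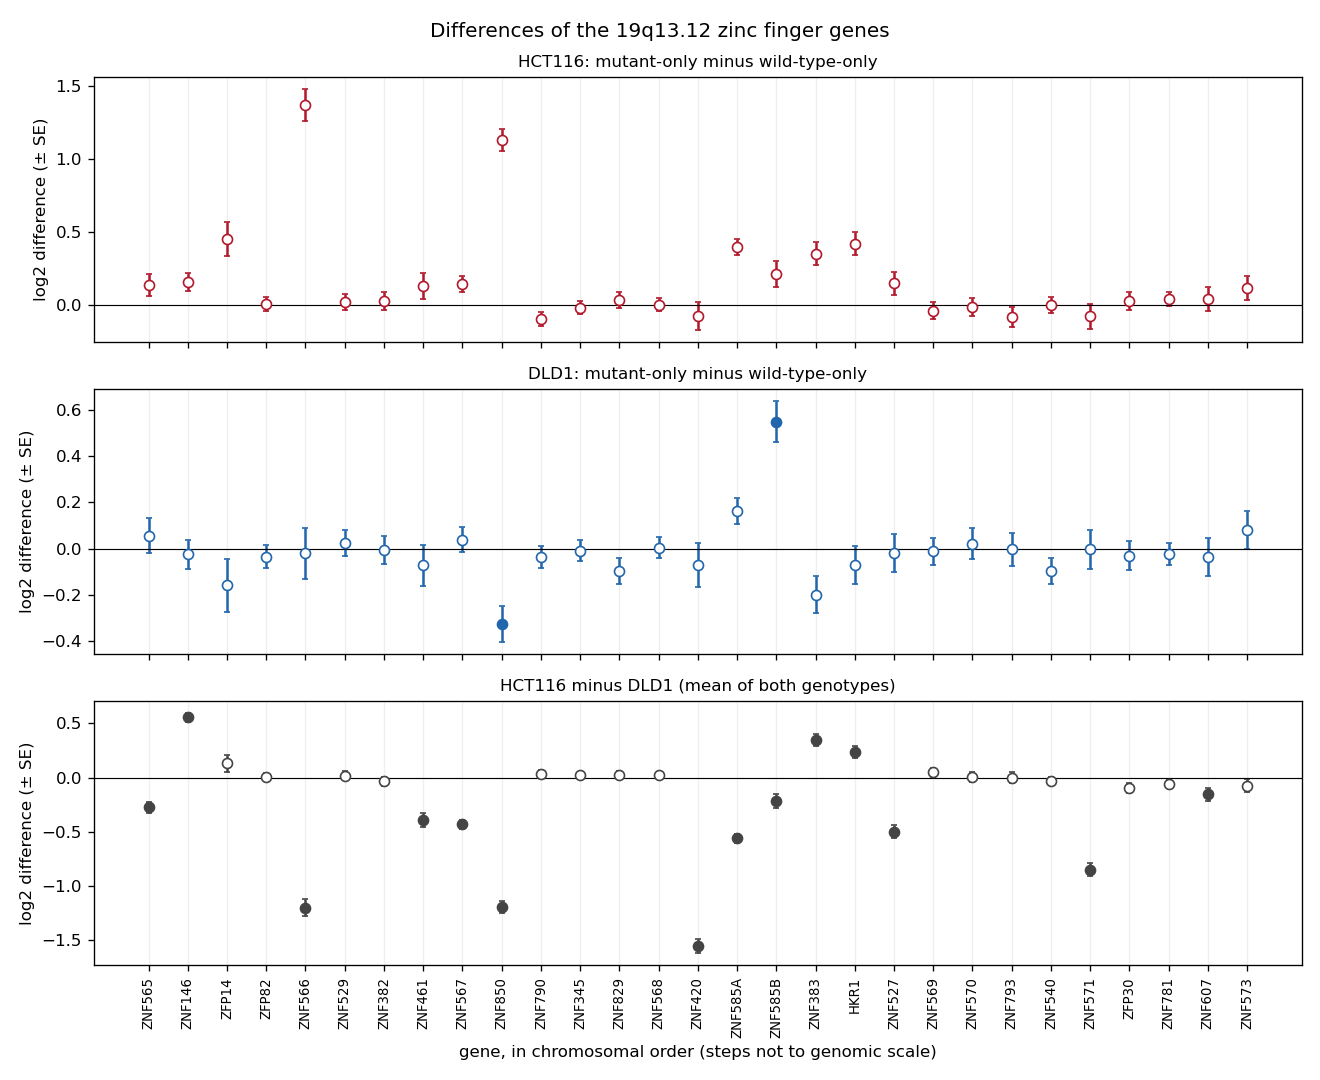
Log2 differences (± SE) of the 29 genes in chromosomal order, with HCT116 mutant-only minus wild-type-only, DLD1 mutant-only minus wild-type-only and HCT116 minus DLD1 in separate panels. Filled points passed the test at an adjusted p under 0.05, and the HCT116 genotype panel has open points because it was not tested. ZNF566 and ZNF850 stand out singly in the HCT116 panel, and the differences between the lines are larger and change sign along the cluster.

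Between the lines, ZNF420, ZNF566, ZNF850 and ZNF571 were the genes with the greatest differences, all lower in HCT116, while ZNF146 was the greatest on the higher side. In HCT116 against DLD1, with both genotypes of a line averaged, 14 of 29 genes passed the test (48.3%), where 58.0% of all genes did. They were 3 higher genes, where 28.4% of all genes were higher, and 11 lower genes, where 29.6% were lower. This contrast does not use the difference between the HCT116 genotypes.

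ZNF420, also known as APAK, whose product has been described as a KRAB repressor of p53, read 5.38, 5.28 and 5.68 on HCT116 mutant-only arrays and 5.70, 5.44 and 5.43 on HCT116 wild-type-only arrays. It read 7.04, 6.95 and 7.01 on DLD1 mutant-only arrays and 7.00, 7.07 and 7.14 on DLD1 wild-type-only arrays. All HCT116 arrays were below all DLD1 arrays, and the genotypes overlapped in both lines. ZNF420 was 2.93-fold lower in HCT116 (log2 difference -1.55, SE 0.0673, adjusted p = 1.06e-10 in limma), and by -1.55 in mutant-only and in wild-type-only cells alike. Its HCT116 values lay within the range of the 12 genes with means under 6, which read 4.74 to 6.17. Whether the background limits the size of this fold was not tested.

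ZNF566 and ZNF850 were also lower in HCT116, by -1.20 (SE 0.0777, adjusted p = 7.89e-09) and -1.19 (SE 0.0549, adjusted p = 2.01e-10) in limma. For both the gap was wider in wild-type-only than in mutant-only cells. For ZNF566 it was -0.50 in mutant-only cells and -1.89 in wild-type-only cells, and for ZNF850 it was -0.46 in mutant-only cells and -1.92 in wild-type-only cells. Those values within a genotype rest partly on the contrast that shaped the list and were not tested.

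ZNF571 read 6.01, 5.92 and 6.09 on HCT116 mutant-only arrays and 6.28, 6.05 and 5.92 on HCT116 wild-type-only arrays. It read 6.83, 6.95 and 6.90 on DLD1 mutant-only arrays and 6.90, 7.00 and 6.80 on DLD1 wild-type-only arrays. All HCT116 arrays lay below all DLD1 arrays, and ZNF571 was 1.80-fold lower in HCT116 (difference -0.85, SE 0.0601, adjusted p = 1.94e-08 in limma). Its neighbours ZNF540 and ZFP30 did not pass the test, with differences of -0.03 and -0.10. ZFP30 is a KRAB zinc finger gene whose mouse counterpart has been linked to chemokine responses in the airway.

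ZNF585A was 1.47-fold lower in HCT116 (adjusted p = 1.98e-08 in limma), with no overlap between the lines, and ZNF585B 1.16-fold lower (adjusted p = 0.0104), with overlap. Without replicate 2 of all groups the call of ZNF585B was lost (adjusted p = 0.188). ZNF527 read 6.52, 6.92 and 6.81 on HCT116 mutant-only arrays and 6.69, 6.56 and 6.57 on HCT116 wild-type-only arrays, against 7.19, 7.14 and 7.16 on DLD1 mutant-only arrays and 7.17, 7.18 and 7.21 on DLD1 wild-type-only arrays. It was 1.41-fold lower in HCT116 (adjusted p = 3.43e-06 in limma), and its DLD1 arrays were close together.

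ZNF567 read 7.00, 6.92 and 6.82 on HCT116 mutant-only arrays and 6.78, 6.82 and 6.71 on HCT116 wild-type-only arrays, against 7.28, 7.30 and 7.30 on DLD1 mutant-only arrays and 7.25, 7.31 and 7.21 on DLD1 wild-type-only arrays. It was 1.35-fold lower in HCT116 (adjusted p = 2.90e-07), ZNF461, known as the gonadotropin-inducible repressor GIOT1, 1.31-fold lower (adjusted p = 7.43e-05) and ZNF565 1.21-fold lower (adjusted p = 4.54e-04), all in limma. In these 3 genes no HCT116 array reached a DLD1 array. ZNF607 was 1.11-fold lower with an adjusted p of 0.0399, a call that was lost in 10 of 21 alternatives.

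The 3 genes that were higher in HCT116 were ZNF146, ZNF383 and HKR1. ZNF146, whose protein has no KRAB domain, was 1.47-fold higher (difference 0.55, SE 0.0440, adjusted p = 6.62e-08 in limma), and each of the 6 HCT116 arrays lay above each of the 6 DLD1 arrays. ZNF146 has been reported as overexpressed in colorectal and pancreatic tumours. ZNF383 was 1.27-fold higher (adjusted p = 9.92e-05) and HKR1 1.18-fold higher (adjusted p = 0.00262). For ZNF383 the gap was 0.62 in mutant-only and 0.07 in wild-type-only cells, and for HKR1 0.48 in mutant-only and -0.01 in wild-type-only cells, so that the wild-type-only cells of the lines read nearly alike.

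The median difference of HCT116 minus DLD1 was -0.0346 over the 29 genes, against 0.00635 over all genes. Of the 219 other zinc finger genes of chromosome 19, 122 passed the test between the lines (55.7%), 48 higher and 74 lower in HCT116, and of the 284 on other chromosomes 176 did (62%). Of the 20 genes that flank the cluster 9 passed, among them SYNE4 at 1.65 and WDR62, a spindle pole protein gene, at -0.70. Copy number of the segment in either line was not measured here.

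Whether neighbours moved together was described over the 28 pairs of adjacent measured genes, beside 18327 adjacent pairs over the genome. Between the lines both genes of a pair passed the test in the same direction in 5 of 28 pairs (17.9%), against 21.1% of genome pairs, and the differences had the same sign in 18 (64.3%), against 55.4%. Among 174 adjacent pairs of other zinc finger genes of chromosome 19 these shares were 31% and 68.4%, and among the non-adjacent pairs of the cluster 14% and 48.7%. In DLD1 the genotype differences had the same sign in 16 of 28 pairs (57.1%), against 52.7% of genome pairs and 58.7% of the 378 non-adjacent pairs of the cluster, and in no pair did both genes pass. In HCT116 they had the same sign in 22 of 28 pairs (78.6%), against 52.4% of genome pairs. The share was 60.3% among the other chromosome 19 zinc finger pairs and 54% among the non-adjacent pairs of the cluster. Many of the cluster's HCT116 differences were near 0. The HCT116 genotype difference was in view when the list was made. Its share is therefore a description, unlike those of the other contrasts, and whether neighbours moved together in HCT116 was not tested. Pairs share a gene with the next pair, so these counts are not of independent pairs.

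Runs of called genes were short. From ZNF461 over ZNF567 to ZNF850, 3 neighbours were lower in HCT116 than in DLD1, and so were the 3 neighbours ZNF420, ZNF585A and ZNF585B. They were followed directly by ZNF383 and HKR1, both higher, and then by ZNF527, lower again. The 4 genes ZNF790, ZNF345, ZNF829 and ZNF568 between those lower runs did not pass the test, and all 4 had means under 6. The correlation of the arrays' deviations from their group means had a median of 0.162 over adjacent pairs, 0.0897 over the 378 non-adjacent pairs and 0.111 over adjacent genes of the genome (12 arrays, 8 residual degrees of freedom, arrays shared by all genes).

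Of the pairs of genes that start close together on opposite strands, 6 have windows, taken from 250 bases before to 50 bases after the start, that overlap. These are ZNF146 with ZNF565 (121 bases), ZNF382 with ZNF529 (155), ZNF567 with ZNF461 (196), ZNF345 with ZNF790 (183), ZNF568 with ZNF829 (140) and ZNF569 with ZNF570 (173). ZNF567 and ZNF461 were both lower in HCT116, by -0.43 and -0.39. ZNF146 and ZNF565, by contrast, passed the test in opposite directions, 0.55 and -0.27. In the other 4 pairs neither gene passed the test in any tested comparison, and all 8 genes had means under 6.

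**Figure D4:**
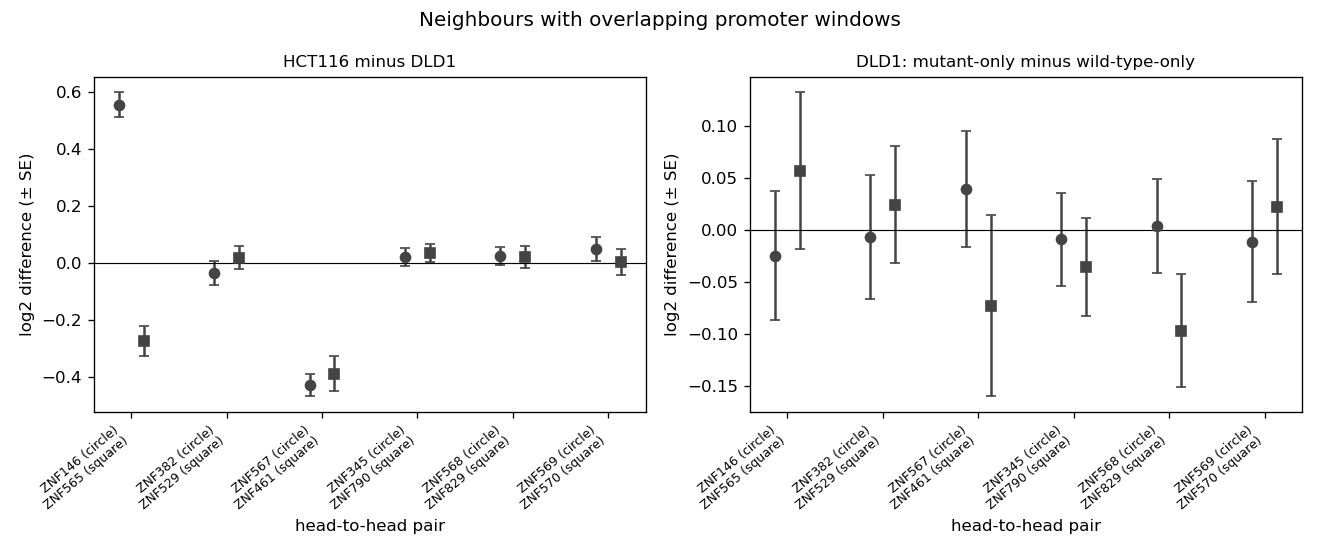
Log2 differences (± SE) of the 6 pairs of neighbours with overlapping promoter windows, in HCT116 minus DLD1 and in DLD1 mutant-only minus wild-type-only cells. The first gene of a pair is a circle and the second a square. Between the lines ZNF146 and ZNF565 lie on opposite sides of 0 and ZNF567 and ZNF461 on the same side.

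KRAB zinc finger proteins act through shared cofactors, of which 30 were listed and 29 measured. Between the lines 23 of the 29 passed the test (79.3%), against 58.0% of all genes, 11 higher and 12 lower in HCT116. All 29 lay above the 40th percentile of mean signal, where 11026 of 18377 genes did. The share over all genes is therefore not one of equally bright genes. TRIM28, the corepressor that binds the KRAB domain, was higher in HCT116 by 0.12 (SE 0.0387, adjusted p = 0.0187 in limma), and SETDB1, the methyltransferase it recruits, had a difference of 0.10 (adjusted p = 0.0749), which did not pass. The histone chaperone subunits CHAF1B and CHAF1A were lower in HCT116 by -1.11 and -0.97, the methyltransferase SUV39H1 by -0.93 and UHRF1, which brings DNMT1 to replicating DNA, by -0.89. The deacetylase HDAC1 was higher by 0.75.

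Between genotypes few cofactors were called. In HCT116 2 of 29 rose in mutant-only cells (6.9%), against 6.16% of all genes: ATRX, a chromatin remodeller, averaged 9.11 ± 0.06 in mutant-only and 8.77 ± 0.16 in wild-type-only cells (SD, n = 3 each; difference 0.34, limma adjusted p = 0.0141), and MORC2, a HUSH-associated ATPase, 9.42 ± 0.09 and 9.10 ± 0.17 (SD, n = 3 each; difference 0.31, limma adjusted p = 0.0242). That count ran between 0 and 5 over the alternatives, with 0 when the HCT116 arrays were fitted alone or without HCT116 mutant-only replicate 1 or 3, and 5 with the replicate number as a block. Called or not, 24 of the 29 had a positive HCT116 difference and 5 a negative one. Their median was 0.0947, against -0.00104 over all genes and 0.0188 over those above the 40th percentile. For 12 of the 29 all mutant-only arrays lay above all wild-type-only arrays, where 12.5% of all genes did. In DLD1 the deacetylase HDAC2 rose by 0.21 in mutant-only cells (adjusted p = 0.0192 in limma). It was the 1 cofactor of 29 called there (3.45%), where 8.77% of all genes were called. That count ran between 0 and 7, with 0 without DLD1 mutant-only replicate 3 or wild-type-only replicate 1 or 2, and 7 with array weights.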

How the data were processed

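RNA from 12 samples, 3 in each of 4 groups, was read on Affymetrix HuGene arrays. Expression was deposited by the authors in log2 units, for 28869 transcript clusters. How those values were background-corrected, summarised and normalized is not given in the sources used here. The authors also deposited, per the file headers, 2 tables of selected clusters with a fold ratio, at a fold cut-off and with no correction for multiple testing, on hg19 annotation. Their group columns carry numbers found in no label, and the group values of the one used here equal the group means to within 8.67e-07. No depth applies to arrays; their number limits the precision.

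Symbols came from the platform annotation, updated through the RefSeq gene table (GRCh38.p14), which otherwise gave the gene order. Clusters with 1 symbol numbered 19310, with several 1752 and with none 7807; those with several or none were left out. For 685 genes with more clusters the one that averaged highest across the 12 arrays was taken. The targeted gene's own transcript is not reported here.

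A model of group means covered all 18377 genes and 12 arrays and was fitted in R 4.3.3 by lmFit and eBayes of limma 3.58.1 (two-sided, 8 residual and 5.17 prior degrees of freedom), with Benjamini-Hochberg adjustment over all genes and calls at an adjusted p under 0.05. The procedure was tested on simulated data. The members and lists were chosen with earlier results of these data known. All members could be named. Array values were given for the 8 with the greatest absolute difference in each of the 3 contrasts. For ZNF540, ZNF829 and ZNF573 these are the values of the DLD1 arrays only. The rule also asked for both neighbours of each such gene and for the called cofactors. Of these neighbours and cofactors only some are named, with differences or means in place of array values. Arrays of a line with the same number deviated together (r of 0.129 to 0.462 in 6 pairs, with -0.321 to 0.17 for different numbers). Same-numbered arrays of different lines did so too (r of 0.0657 to 0.471 in 12 pairs, with -0.413 to 0.191 for different numbers). What the numbers share is not given by the labels and was not tested. The main fit had no block for the replicate number. Such a block, within a line or over both lines, was run as an alternative. Alternatives were the mean of a gene's clusters, a filter on dim genes, quantile normalization, median centring, array weights, the line's arrays alone, the replicate block, and leaving out arrays or replicate numbers.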

Additional observations from a re-analysis of the deposited data

Results flagged for a closer look

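In 3 genes every HCT116 mutant-only array was above every wild-type-only array while every DLD1 mutant-only array was below every wild-type-only array. Taken singly, 12.5% of all genes had the HCT116 pattern and 12.7% the DLD1 pattern. The share of all genes with both patterns was not counted, so whether 3 of 29 is unusual was not tested. The HCT116 change minus the DLD1 change was 1.45 on the log2 scale for ZNF850, 0.61 for ZFP14 and 0.55 for ZNF383. These differences between the lines were not tested, because the HCT116 change shaped the list of genes.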

How the results depend on the processing

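No called gene of the cluster changed direction under any alternative run. With array weights, 5 of the 29 genes were called in DLD1 instead of 2; in that fit the first DLD1 wild-type-only array weighed 6.23, against 0.436 to 1.72 for the rest. Leaving out 1 array gave between 1 and 3 called genes, and leaving out 1 replicate number of all groups also 1 to 3. With genes under the 40th percentile left out, which keeps 6 of the 29 genes, 6 were called between the lines instead of 14, the median difference of HCT116 minus DLD1 was -0.182, the median HCT116 genotype difference 0.28, and 3 adjacent pairs had the same DLD1 sign instead of 16. The fewer genes kept account for those counts by construction. The median HCT116 genotype difference, 0.0395 with all arrays, was 0.077 without replicate 3 and 0.0743 without replicate 2 of all groups, 0.0745 without HCT116 mutant-only replicate 3, 0.0643 without mutant-only replicate 2, 0.0239 without wild-type-only replicate 2 and 0.0209 with median centring. The cause was not tested. With the replicate number as a block, 2 genes were called in DLD1 and 14 between the lines, and the block changed no other call of a gene in the cluster; its effect on the cofactor count is given above. Signal over background was not assessed.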
